A study of Mus musculus with 24 samples.

Results

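The data described here are RNA-seq libraries of islets of Langerhans from old mice, comparing day 7 after partial pancreatectomy (PPTx) with no operation. They were chosen by their titles: the 2 old day 7 libraries and the 4 old control libraries, 6 of the 24 libraries in the series. All mice were C57BL/6J males. The old animals were labelled 52 weeks of age and the young ones 8 weeks; in the operated groups about 50% of the pancreas had been removed, and the controls had no sham surgery, so the operation and the loss of tissue cannot be told apart. The 6 other old libraries (4 from day 2 and 2 from day 14) entered the same fit, and the young libraries served only for the test of age. Each library was made from pooled islets of 1 or 2 mice, obtained by collagenase digestion, so a library is not always 1 animal, and p-values measure the spread between such preparations.

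PPTx leaves the remaining islets with a larger demand for insulin and is used to provoke replication of beta cells, which becomes rarer with age. Surgery and injury of the pancreas also release cytokines: those of the interleukin-6 family act through the transcription factor STAT3, interferons act through other factors of that family and through interferon-regulatory factors, and many inflammatory signals act through NF-kB. Each of these pathways switches on its own inhibitors, such as Socs3 and Nfkbia, whose transcripts therefore serve as readouts of signalling.

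The day 7 libraries held 9564472 and 9243505 counts over genes and the controls 6883468 to 9256957. Controls 1 and 2 and both day 7 libraries carried the run label W0054, a code in the file names, and controls 3 and 4 carried W0102. The percentage of aligned reads assigned to genes, called the genic share below, moved with the comparison: it was 58.5% and 61.4% at day 7, 51.9% and 53.4% in controls 1 and 2, and 37.6% and 23.2% in controls 3 and 4. A date-like code in the file headers also differed between controls 1 and 2 and the day 7 libraries, so that code and the operation cannot be told apart. Ins2, a main insulin gene, took 92600 to 118000 CPM (counts scaled to a common library size) in the controls and 85300 and 92900 CPM at day 7, and the 8 beta cell markers summed to 123000 to 168000 CPM and to 130000 and 138000 CPM, so the islet label held in every library. Library pairs of 1 group differed by far more than sampling noise, with a chi-square per degree of freedom of at least 15.5.

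Of 15521 genes tested, 161 differed between old day 7 and old control islets at an adjusted p below 0.05 in edgeR's quasi-likelihood test, which is 1.04% of the genes tested. The change was an increase for 104 genes (0.67%) and a decrease for 57 (0.367%). The excess of rises was not kept by every setting: DESeq2 called 526 genes higher (3.39%) and 636 lower (4.1%), 7.49% in all, the old libraries of run label W0054 alone gave 244 and 260, and a replicate block gave 293 and 323. An unadjusted p below 0.05 was reached by 3875 genes (25.0%), and the counts of list members below are to be read against these shares. A change of at least 2-fold was reached by 71 of the 161 genes, 39 of the 104 that rose and 32 of the 57 that fell. Over all genes tested the log2 fold change had a median of -0.038, and it was -1.49 among the 2863 genes with a mean log2 CPM below 1 and 0.09 among the 9717 genes above 3, so weakly expressed genes lay lower at day 7 as a class. Within run label W0054 the median for those weak genes was -0.36. Without the first or the second day 7 library 4 or 16 genes were called, and 2.48% or 8.7% of the 161 genes kept the call. Without control 1, 2, 3 or 4 this share was 51.6%, 46.0%, 28.6% or 63.4%. Each of the 161 kept its sign, which was nearly fixed in advance by the separation given next. The day 7 and control values did not overlap for 160 of the 161 called genes, against 34.9% of all genes tested. The genes were called on these same values, so this separation is no separate support.

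**Figure D1:**
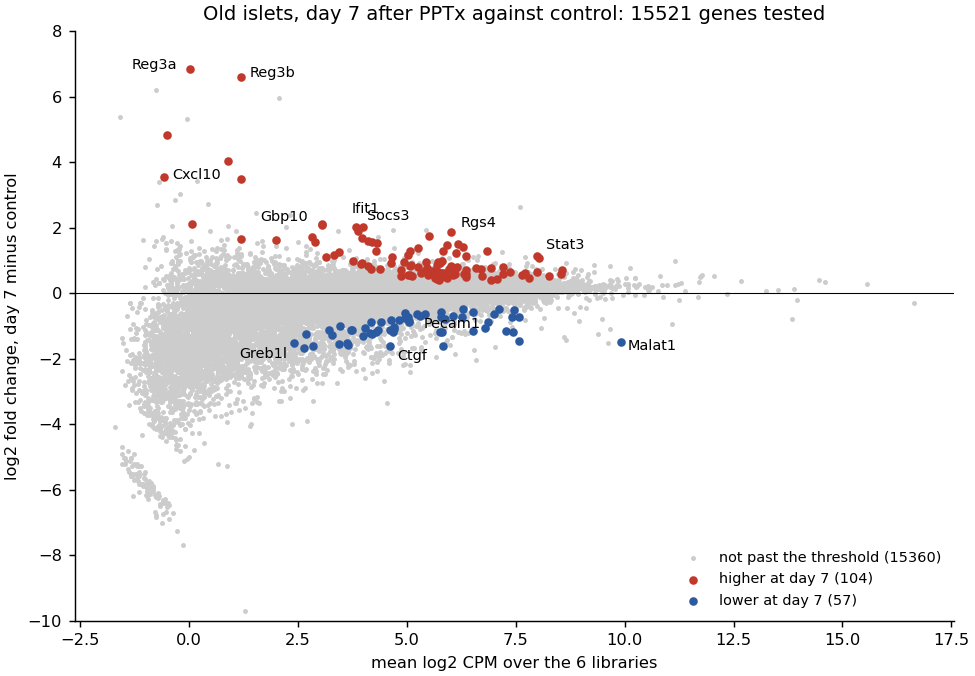
Log2 fold change of old day 7 minus old control islets (y axis) against mean log2 CPM over the 6 libraries (x axis), 1 point per gene. The 104 genes called higher are red, the 57 called lower are blue, and the grey cloud bends downwards at low expression.

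Among the genes that rose were several that restrain or carry cytokine signals, although other inhibitors of the kind did not pass the test. Socs3, the feedback inhibitor of STAT3-coupled receptors, measured 9.41, 8.73, 10.3 and 9.66 CPM in the controls and 46.4 and 25.4 CPM at day 7, so that its log2 fold change was 1.91 ± 0.20 (adjusted p = 0.00307; SEs follow ± signs). Bcl3, an atypical inhibitor-of-kB protein that binds NF-kB subunits, measured 6.15, 4.07, 3.84 and 6.27 CPM and then 27.0 and 16.1 CPM (log2 fold change 2.09 ± 0.25, adjusted p = 0.00553). The first day 7 library was the higher one for both genes, and the lower one still exceeded every control. Nfkbia, which encodes the inhibitor that retains NF-kB in the cytoplasm, rose from 43.7 to 62.3 CPM in the controls to 115 and 137 CPM (log2 fold change 1.24, adjusted p = 0.0126). Here the second day 7 library was the higher one. Relb, an NF-kB subunit, rose by 1.17 on the log2 scale (adjusted p = 0.0179), from at most 8.48 CPM to 15.5 and 18.5 CPM. S100a9, a calcium-binding protein of neutrophils and monocytes, was called as well (adjusted p = 0.0259), but it measured 0.678 CPM in the second day 7 library and at most 0.261 CPM in any control, a level of a few counts.

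Socs3, Nfkbia, Relb and S100a9 were the members of the inflammation list past the threshold, 4 of 21 tested. The median log2 fold change of that list was 1.17, against -0.038 for all genes, and 17 of its members lay above 0. Inhibitors that did not pass were Tnfaip3 (0.14, adjusted p = 0.687) and Il1rn (0.07, adjusted p = 0.945) of this list, Usp18 of the interferon list (0.41, adjusted p = 0.342), and the STAT5-induced Socs2 (0.08, adjusted p = 0.87) and Cish (0.34, adjusted p = 0.721). The ligands of the list did not pass either: Cxcl2 showed 3.41 ± 1.02 on the log2 scale (adjusted p = 0.0939), Il1b 1.31 (adjusted p = 0.132) and Il6 -0.98 (adjusted p = 0.446). The summed level of the 25 members with a row of their own was 113 to 149 CPM in the controls and 232 to 278 CPM at day 7. Genes outside the lists, picked after their values were seen, rose beside them. Stat3 itself measured 170 to 263 CPM in controls and 451 and 415 CPM at day 7 (log2 fold change 1.07 ± 0.17, adjusted p = 0.0153). Il13ra1, a receptor subunit for interleukin-13, measured at most 43.8 CPM in controls and 76.7 and 84.9 CPM at day 7 (adjusted p = 0.00802), and Pim2, a cytokine-induced survival kinase, rose by 1.28 on the log2 scale (adjusted p = 0.00307).

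The second group was the interferon response, in which 4 of 30 tested members rose and none fell, with Ifit1, Psmb8 and Cxcl10 among the risen. Psmb8, a catalytic subunit of the immunoproteasome, stood at 14.8 to 22.0 CPM in the controls and at 46.7 and 37.0 CPM at day 7 (log2 fold change 1.10, adjusted p = 0.0178), with no overlap between the groups. Ifit1, an antiviral RNA-binding protein, stood at 6.66 to 10.5 CPM and then at 46.0 and 26.5 CPM (log2 fold change 2.01 ± 0.41, adjusted p = 0.045). Cxcl10, a chemokine that draws T cells, stood at 0.502 to 1.17 CPM and then at 12.2 and 8.36 CPM (adjusted p = 0.0266). Ifit1 was called in 9 of 24 alternatives and Cxcl10 in 10 of 23. DESeq2 called 12 of the list, against 7.49% of all genes. In total 27 of the 30 members had a log2 fold change above 0, with a median of 0.76, and several lay just outside the threshold, among them Irf7 (1.90, adjusted p = 0.0521) and Ifit3 (1.94, adjusted p = 0.0671). Cxcl9, a close relative of Cxcl10, lay at -1.69 ± 1.39 (adjusted p = 0.427). The list summed to 387 to 461 CPM in the controls and to 902 and 610 CPM at day 7.

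A pair of guanylate-binding proteins, GTPases that interferons induce for defence within cells, were among the 12 largest rises. Gbp10 measured 5.27, 4.95, 3.74 and 6.13 CPM in the controls and 26.5 and 16.5 CPM at day 7 (log2 fold change 2.11 ± 0.27, adjusted p = 0.00791). Gbp6 measured 8.09 to 12.1 CPM and then 38.1 and 29.9 CPM (log2 fold change 1.70, adjusted p = 0.0121). Il18bp, a secreted decoy that neutralises interleukin-18, rose by 1.71 on the log2 scale (adjusted p = 0.0126), from at most 5.48 CPM to 17.8 and 12.9 CPM. Antigen processing genes picked after their values were seen moved the same way: Tap2, a chain of the peptide transporter, by 0.62 (adjusted p = 0.0273), Tapbp, which loads peptides onto class I molecules, by 0.65 (adjusted p = 0.0265), and Psmb10, a further immunoproteasome subunit, by 0.97 (adjusted p = 0.0347). B2m, the light chain of class I molecules, did not pass (0.59, adjusted p = 0.0645).

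Leukocyte markers were measured beside these genes. Of 13 macrophage markers, C1qb (log2 fold change 0.95, adjusted p = 0.0257) and Ctss (0.78, adjusted p = 0.047) were called higher, against 0.67% of all genes. In this list 10 members lay above 0, and the median was 0.57. C1qc (0.89, adjusted p = 0.0676), Cd68 (0.85, adjusted p = 0.0994) and Aif1 (1.20, adjusted p = 0.113) did not pass. Within run label W0054 3 of the 13 were called higher, where 1.75% of all genes were. The list summed to 182 to 256 CPM in the controls and 321 and 262 CPM at day 7, and none of its members was at 0 in all 6 libraries. Csf1r, the receptor that macrophages need to survive, had a log2 fold change of 0.12 (adjusted p = 0.588), and Lyz2 0.14 (adjusted p = 0.708), while C1qa (-0.31, adjusted p = 0.289), Mrc1 (-0.66, adjusted p = 0.482) and Emr1 (-0.11, adjusted p = 0.74) lay below 0. The 13 lymphocyte and general leukocyte markers summed to 38.0 to 81.0 CPM in the controls and 88.8 and 78.5 CPM at day 7, so the groups overlapped, and none of the 8 tested passed. In these whole islets more immune cells and more RNA per cell cannot be told apart, and the part of such cells in the interferon and inflammation results was not tested.

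Promoters of risen genes from both groups are shown because they hold the letters that STAT, interferon-regulatory and NF-kB factors bind. The searched letters were TTCNNNGAA for STAT, GAAANNGAAA for the interferon-stimulated element (ISRE), and GGGANTTCC or GGGANNTTCC for NF-kB (kB), each on both strands of the 250 bases before the start. The sequences are RefSeq's on GRCm38.p6, 5′ to 3′ on the gene's strand, with matches in capitals.
Socs3, chr11:117969367-117969616, minus strand: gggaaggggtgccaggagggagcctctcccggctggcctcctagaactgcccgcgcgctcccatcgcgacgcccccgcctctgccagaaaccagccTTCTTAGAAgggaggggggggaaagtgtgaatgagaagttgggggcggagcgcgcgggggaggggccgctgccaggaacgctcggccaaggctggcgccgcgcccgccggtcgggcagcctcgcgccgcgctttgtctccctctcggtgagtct
Psmb8, chr17:34197945-34198194, plus strand: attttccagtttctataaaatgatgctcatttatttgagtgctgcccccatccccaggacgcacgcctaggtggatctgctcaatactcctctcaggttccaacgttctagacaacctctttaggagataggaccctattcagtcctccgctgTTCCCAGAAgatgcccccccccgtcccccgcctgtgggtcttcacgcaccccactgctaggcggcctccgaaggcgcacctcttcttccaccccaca
Ifit1, chr19:34640639-34640888, plus strand: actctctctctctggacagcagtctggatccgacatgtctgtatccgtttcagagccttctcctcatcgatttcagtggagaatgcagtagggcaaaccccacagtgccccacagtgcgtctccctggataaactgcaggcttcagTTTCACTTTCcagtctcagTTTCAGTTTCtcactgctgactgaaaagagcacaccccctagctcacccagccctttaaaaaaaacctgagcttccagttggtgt
Cxcl10, chr5:92348890-92349139, minus strand: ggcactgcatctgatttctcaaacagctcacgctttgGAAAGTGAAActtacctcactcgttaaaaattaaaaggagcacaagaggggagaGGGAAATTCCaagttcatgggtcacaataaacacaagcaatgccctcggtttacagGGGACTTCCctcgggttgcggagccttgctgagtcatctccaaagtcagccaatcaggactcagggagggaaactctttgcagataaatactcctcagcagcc
Nfkbia, chr12:55492648-55492897, minus strand: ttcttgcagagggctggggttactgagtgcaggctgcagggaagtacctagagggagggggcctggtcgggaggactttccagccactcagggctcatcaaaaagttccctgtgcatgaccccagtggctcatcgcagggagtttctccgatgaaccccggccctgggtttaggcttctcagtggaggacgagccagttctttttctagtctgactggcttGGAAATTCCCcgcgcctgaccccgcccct

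The capitals mark a STAT match that begins 154 bases before the start of Socs3 and 97 bases before that of Psmb8. They mark a pair of ISRE matches 104 and 85 bases before the start of Ifit1, 1 ISRE match and a pair of kB matches for Cxcl10, and 1 kB match 29 bases before the start of Nfkbia. Of 98 risen genes with a single name, 71 matched a promoter. The ISRE letters stood in 9 of them (12.7%), against 3.25% of the 10441 tested genes with a promoter. The STAT letters stood in 5 (7.04%, against 7.7%) and the kB letters in 4 (5.63%, against 3.39%). The genes shown were picked for holding a match, and a match of letters is no binding site.

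**Figure D2:**
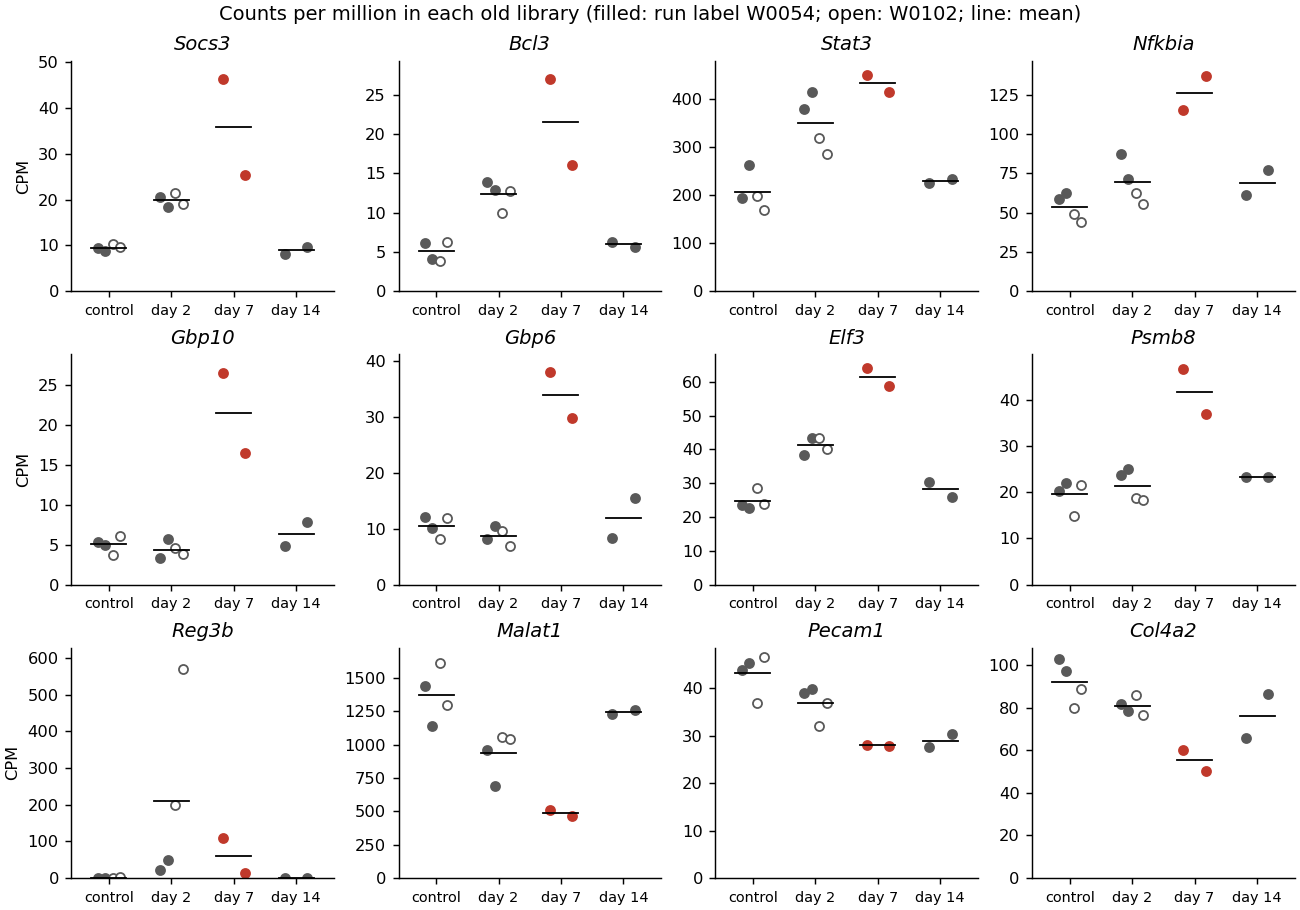
CPM (y axis, from 0) of 12 genes in each of the 12 old libraries, by group (x axis); filled points carry run label W0054, open points W0102, and lines are group means. Socs3, Bcl3, Gbp10, Gbp6 and Psmb8 stand highest in both day 7 libraries (red), and Malat1 and Col4a2 stand lowest there.

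Reg genes, which encode secreted lectins induced in injured pancreas, had the largest fold changes and the widest spread. Reg3b measured 0.126, 0.000, 0.404 and 1.96 CPM in the controls and 109 and 12.8 CPM at day 7 (log2 fold change 6.59 ± 1.43, adjusted p = 0.0442). Reg3a measured 0.000, 0.000, 0.404 and 0.131 CPM, and then 36.1 and 2.60 CPM (adjusted p = 0.0443). In both genes the first day 7 library was many times higher than the second. Since the controls held only a few counts, the size of both folds depends on the fit and its small added count: for Reg3b it ran from 4.36 to 16.13 over the 23 alternatives, 9.55 within run label W0054, and the gene was called in 15 of them. Reg2 missed the threshold narrowly (0.628 to 1.44 CPM, then 100 and 28.6 CPM, adjusted p = 0.0502), and Reg3g (adjusted p = 0.107) and Reg1 (17.9 to 62.6 CPM, then 231 and 32.3 CPM, adjusted p = 0.226) did not pass. Thus 2 of the 6 Reg genes tested rose and all 6 lay above 0, with a median log2 fold change of 5.64.

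Within each group of old libraries, the summed acinar markers and the summed Reg genes put the libraries in the same order, but across groups they did not move together. The acinar list summed to 4890 CPM in the first day 7 library and 873 CPM in the second, while the Reg genes summed to 501 and 80.2 CPM. In the controls the acinar sum ran from 609 to 3420 CPM and the Reg sum from 18.9 to 64.1 CPM, so control 1 had an acinar sum of 3420 CPM with a Reg sum of 64.1 CPM. Reg1 gave 62.6 CPM of that Reg sum, and in control 1 Reg2 measured 0.628 CPM and Reg3a 0 CPM. The second day 7 library, with the lower acinar sum of 873 CPM, measured 28.6 CPM of Reg2 and 2.60 CPM of Reg3a. None of the 14 acinar markers tested passed. The part of acinar tissue in the Reg results was not tested.

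Other genes among the 12 largest rises act in signalling. Rgs4, which shortens signals from G protein-coupled receptors, measured 44.6, 43.2, 45.6 and 39.8 CPM in the controls and 219 and 96.5 CPM at day 7 (log2 fold change 1.86 ± 0.23, adjusted p = 0.00553). Trib1, a pseudokinase that directs proteins to degradation, rose from 23.7 to 34.6 CPM in the controls to 118 and 88.0 CPM (log2 fold change 1.75, adjusted p = 0.0178). Gem, a small GTPase that restrains calcium channels, rose by 2.01 on the log2 scale (adjusted p = 0.0295). Tph2, an enzyme of serotonin synthesis, rose by 1.65 (adjusted p = 0.045), from 1.16 to 1.96 CPM to 4.23 and 4.74 CPM, and was called in 10 of 23 alternatives. It was the member called among 6 tested genes of the pregnancy and prolactin list, whose median was -0.05. Elf3, an epithelial ETS-family transcription factor, had the smallest adjusted p of all genes: it measured 23.7, 22.8, 28.7 and 23.9 CPM in the controls and 64.0 and 58.8 CPM at day 7 (log2 fold change 1.30 ± 0.12, adjusted p = 0.00125). Socs3, Rgs4, Elf3 and Pim2 were the 4 genes called whichever of the 6 libraries was left out, and Pim2 was named after its values were seen.

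Genes of DNA replication and division were tested next, and none was called in the fit of 12 old libraries. Of 33 S phase genes tested, 0 passed edgeR's test at an adjusted p below 0.05, the smallest adjusted p being 0.118 for Mcm4. An unadjusted p below 0.05 was reached by 4, against 25.0% of all genes. DESeq2 called 0, against 7.49% of all genes, and the median log2 fold change was 0.21. The summed level of the list went the other way, with 644 to 1490 CPM in the controls and 566 and 567 CPM at day 7. Within run label W0054 Tyms, thymidylate synthase, was called lower (-0.66, adjusted p = 0.00871), against -1.44 (adjusted p = 0.139) in the fit of 12 libraries. Mcm2, a subunit of the replicative helicase, measured 11.2 to 16.7 CPM in the controls and 16.0 and 18.9 CPM at day 7 (log2 fold change 0.32 ± 0.25, adjusted p = 0.398). The helicase subunits Mcm5 (0.18, adjusted p = 0.842) and Mcm6 (0.30, adjusted p = 0.304) and the sliding clamp Pcna (0.34, adjusted p = 0.221) did not pass either. Of 27 genes of G2 and M phase 0 passed edgeR's or DESeq2's test and 0 had an unadjusted p below 0.05, with a median of 0.07. With the genic share as a covariate the median was 0.66 for this list and 0.30 for the S phase list, and 0 members of either were called. Mki67, the Ki-67 proliferation antigen, measured 7.91, 7.27, 5.16 and 8.48 CPM in the controls and 6.84 and 8.92 CPM at day 7 (0.14 ± 0.45, adjusted p = 0.85), and Top2a, which untangles replicated DNA, had 0.21 ± 0.53 (adjusted p = 0.804). Both genes overlapped between the groups, and with SEs of this size a moderate change may have gone undetected. Among 18 cell cycle brakes and p53 targets, Rb1, the retinoblastoma protein that holds cells in G1, rose by 0.44 ± 0.09 (adjusted p = 0.0443), from 45.5 to 50.1 CPM in the controls to 62.7 and 64.0 CPM. Ccng1, a p53 target, rose by 0.40 (adjusted p = 0.0443). Cdkn1a, the inhibitor p21, had 0.02 (adjusted p = 0.959), and Cdkn2a, the senescence-associated p16 and p19 locus, measured at most 0.145 CPM and did not pass the filter.

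Of the beta cell identity genes 0 of 25 tested were called in edgeR's fit of 12 old libraries, with a median log2 fold change of 0.10; 6 had an unadjusted p below 0.05, near the share of all genes, and DESeq2 called 3. Slc2a2, the glucose transporter of mouse beta cells, came nearest: it measured 500, 508, 639 and 485 CPM in the controls and 296 and 403 CPM at day 7 (log2 fold change -0.61 ± 0.15, adjusted p = 0.0713). Within run label W0054 3 members were called: Slc2a2 (-0.53, adjusted p = 0.0423) and the channel Trpm5 (-0.73, adjusted p = 0.0332) were lower, and the transcription factor Neurod1 (0.66, adjusted p = 0.00867) was higher. The values were -0.20 ± 0.24 for Ins1, -0.31 ± 0.51 for Ins2, 0.11 for the transcription factor Mafa, 0.10 for Pdx1 and 0.14 for the maturity marker Ucn3, with adjusted p of at least 0.60. Gcg, the glucagon gene of alpha cells, measured 14800 to 27000 CPM in the controls and 12500 and 8640 CPM at day 7 (-0.78 ± 0.50, adjusted p = 0.317). All 6 alpha cell markers lay below 0 with a median of -0.81, and 0 passed in edgeR or DESeq2, with 4 at an unadjusted p below 0.05. Sst of delta cells (-0.46, adjusted p = 0.209) and Ppy of PP cells (0.53, adjusted p = 0.328) did not pass.

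Of the 22 genes of folding in the endoplasmic reticulum and the unfolded protein response 0 passed in edgeR, with a median of 0.14. An unadjusted p below 0.05 was reached by 2 and DESeq2 called 1, against 25.0% and 7.49% of all genes. Hspa5, the chaperone BiP, measured 2700, 2960, 2000 and 1900 CPM in the controls and 2370 and 3540 CPM at day 7 (0.30 ± 0.21, adjusted p = 0.357), so the groups overlapped. The PERK-ATF4 list had 2 of 17 members called: Asns, asparagine synthetase, rose by 0.55 (adjusted p = 0.0481), and Cebpb, a transcription factor that inflammatory cytokines also induce, by 0.74 (adjusted p = 0.0423). Atf4 itself had -0.60 (adjusted p = 0.152), and the list's median was 0.31. Sqle, squalene epoxidase, was the gene called among 20 of cholesterol synthesis (0.62, adjusted p = 0.0197; list median 0.26). Oxidative phosphorylation had 0 of 28 called by edgeR, 4 by DESeq2 and 13 at an unadjusted p below 0.05 (25.0% of all genes); 27 lay above 0, with a median of 0.31. In a fit with the genic share as a covariate that median was 0.07.

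**Figure D3:**
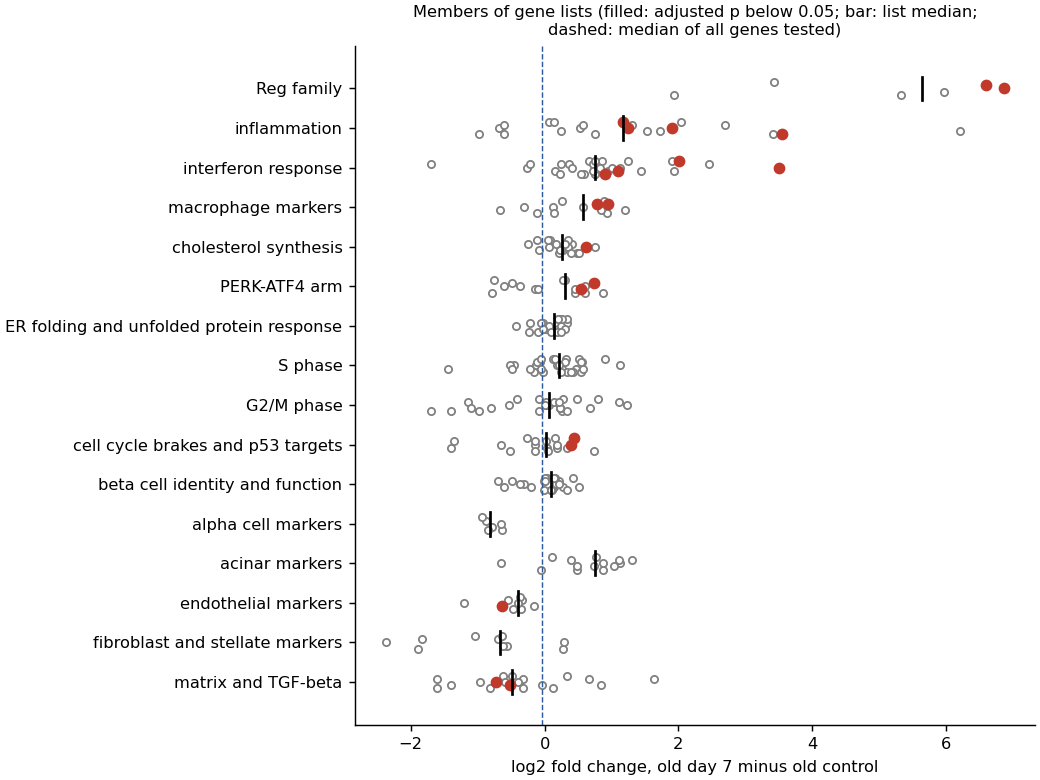
Log2 fold change of old day 7 minus old control (x axis) for each tested member of 16 gene lists; filled red points passed an adjusted p of 0.05, black bars are list medians and the dashed line is the median of all genes, -0.038. Reg, inflammation and interferon lists lie to the right, and alpha cell, endothelial, fibroblast and matrix lists to the left.

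Of 9 endothelial markers 1 fell, and of 19 matrix genes 2 fell. Pecam1, the adhesion molecule CD31 of endothelial cells, measured 43.9, 45.4, 36.9 and 46.6 CPM in the controls and 28.1 and 27.8 CPM at day 7 (log2 fold change -0.63 ± 0.13, adjusted p = 0.0443). The other 8 endothelial markers tested did not pass but all lay below 0, for example Kdr, the main receptor for vascular endothelial growth factor (-0.47, adjusted p = 0.0737). The list's median was -0.40, and its summed level was 672 to 895 CPM in the controls and 559 and 568 CPM at day 7. Within run label W0054 5 of 8 tested endothelial markers were called lower, where 1.87% of all genes were. Col4a1 (-0.52, adjusted p = 0.047) and Col4a2 (-0.73, adjusted p = 0.031), the chains of basement membrane collagen IV, were the members called among 19 matrix genes, whose median was -0.48 and of which 5 lay above 0, among them Fn1 (0.67, adjusted p = 0.414), Tgfbi (0.84, adjusted p = 0.147) and Timp1 (1.64, adjusted p = 0.418). With the genic share as a covariate the median was 0.02 for the matrix list and -0.63 for the endothelial list. Col4a2 measured 79.8 to 103 CPM in the controls and 60.2 and 50.5 CPM at day 7. Cav1, which forms caveolae and is abundant in endothelium, fell by 1.24 on the log2 scale (adjusted p = 0.0295), from 18.2 to 28.4 CPM to 11.2 and 9.37 CPM. Ctgf, a matrix-associated growth regulator, was the immediate early gene called among 24 and fell by 1.60 (33.8, 32.1, 36.5 and 41.8 CPM, then 16.1 and 7.68 CPM, adjusted p = 0.0264). Falls were also called for Egflam, an extracellular matrix protein (-1.56, adjusted p = 0.0353), Igfbp5, which binds insulin-like growth factors (-1.22, adjusted p = 0.0472), and Pdgfd, a ligand of platelet-derived growth factor receptors (-1.23, adjusted p = 0.0481). Pdgfd was called in 9 of 24 alternatives. Fewer endothelial cells and less RNA per cell cannot be told apart here.

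Among the other genes of the 12 largest falls, Malat1, an abundant noncoding RNA of nuclear speckles, measured 1440, 1140, 1610 and 1300 CPM in the controls and 508 and 463 CPM at day 7 (log2 fold change -1.5 ± 0.19, adjusted p = 0.00778). Snhg11 fell by 1.60 (adjusted p = 0.046), as did the uncharacterised transcripts A230057D06Rik (-1.62), 2900005J15Rik (-1.31) and Gm13003 (-1.52). Greb1l, a homologue of an estrogen-responsive gene, fell by 1.66 (7.79 to 9.67 CPM, then 2.60 and 2.94 CPM, adjusted p = 0.0126), and Igflr1, a receptor of the tumour necrosis factor receptor type, also fell (-1.52, adjusted p = 0.0295). The genic share was lower in the controls than at day 7, and its part in the fall of Malat1 was not tested. Within run label W0054 the share still separated the groups, at 51.9% and 53.4% in the controls and 58.5% and 61.4% at day 7. Malat1 fell there by 1.41 (adjusted p = 0.00298), and with the genic share as a covariate over the 12 old libraries by 1.35 (adjusted p = 0.00789). Over the 24 alternatives its log2 fold change ran from -1.58 to -0.80, and it was called in 21 of them.

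The check with controls 1 and 2, in a fit of the 8 old libraries of run label W0054, called 504 of 13922 genes (3.62%). Of the 104 genes that rose in the main comparison 93 were called higher there, and of the 57 that fell 55 were called lower. All 160 called genes that were tested there kept their sign. These libraries were also part of the main comparison, so the kept signs are no separate support. Among the genes that lost the call were Cxcl10 (3.90, adjusted p = 0.065), Ifit1 (1.96, adjusted p = 0.0563), Cebpb (adjusted p = 0.0756) and Igfbp5 (-0.97, adjusted p = 0.0717). Reg2 gained it (6.55, adjusted p = 0.00463), as did the immediate early genes Nr4a1 (1.58, adjusted p = 0.0263), Egr1 (1.41, adjusted p = 0.0493) and Junb (1.37, adjusted p = 0.00721), of which Nr4a1 and Junb were named after their values were seen. With the genic share as a covariate, 96 of 15521 genes were called (0.619%), 43 higher (0.277%) and 53 lower (0.341%), and 55 of the 161 genes were among them. Socs3, Bcl3, Gbp10, Gbp6, Nfkbia, Malat1 and Greb1l were called in that fit, and Psmb8 (0.96, adjusted p = 0.0523), Pecam1 (-0.67, adjusted p = 0.0527) and Trib1 (1.36, adjusted p = 0.0513) were just outside. Rb1, Ccng1, Asns, Cebpb, Sqle, C1qb and Ctss lost the call there, while 5 of the 6 Reg genes tested were called. A fit of run label W0054 with the genic share as well, chosen after seeing the data, called 23 genes. These held 9 of the 161 (5.59%), and 158 of the 160 tested kept their sign.

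**Figure D4:**
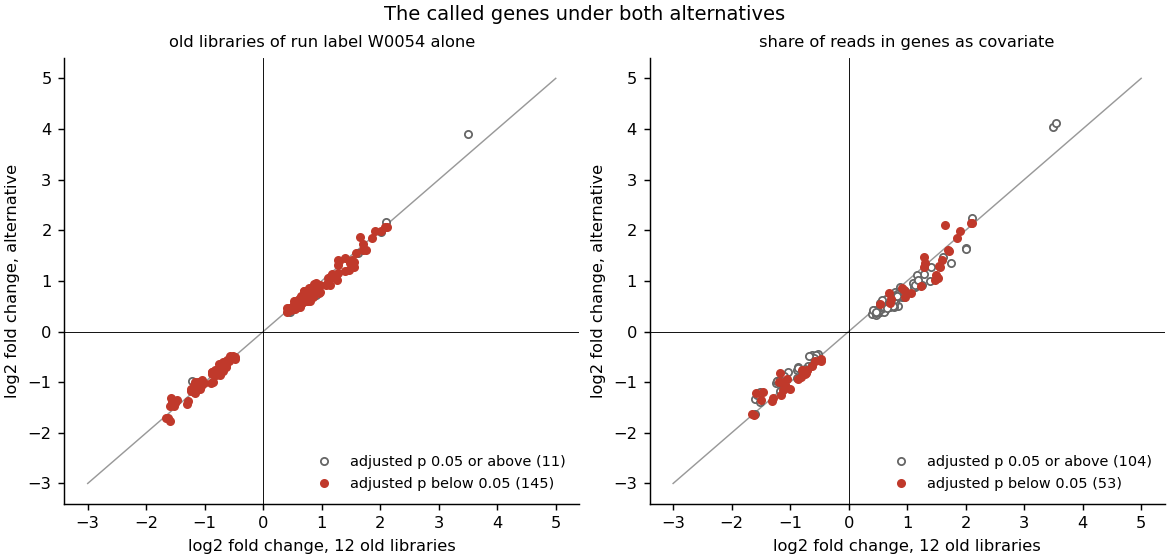
Log2 fold change of the called genes in the fit of 12 old libraries (x axis) against the same value in the 8 old libraries of run label W0054 (left) or with the genic share as a covariate (right); filled points passed an adjusted p of 0.05 there. Points lie along the line of equal values, and genes above 4 on the x axis or not tested on the left (Crybb3, Gal, Reg3a, Reg3b and S100a9) are not drawn.

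The old day 7 libraries were also compared with the old libraries of day 2 and day 14. Against day 2, 2 of 15521 genes were called (0.0129%), both higher at day 7: Gbp10 (log2 difference 2.29, adjusted p = 0.0164) and Gbp6 (1.95, adjusted p = 0.0164); 1617 genes had an unadjusted p below 0.05. Gbp10 measured 3.35, 5.75, 4.61 and 3.77 CPM at day 2, no higher than the controls. Socs3 and Stat3, by contrast, stood between controls and day 7 at day 2: Socs3 measured 18.4 to 21.4 CPM and Stat3 286 to 414 CPM, and neither differed from day 7 past the threshold (adjusted p = 0.284 and 0.478). Reg3b measured 22.0 to 571 CPM at day 2, a range that includes the first day 7 library.

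Against day 14, 2 genes were called (0.0129%), both higher at day 7: Socs3 (2.00, adjusted p = 0.023) and Elf3 (1.13, adjusted p = 0.023), with 1307 genes at an unadjusted p below 0.05. In a fit of the old libraries of run label W0054 alone 403 genes were called for this comparison, and 0 for day 7 against day 2 (edgeR; 1304 at an unadjusted p below 0.05). Socs3 measured 8.2 and 9.6 CPM at day 14 and Elf3 30.3 and 26.0 CPM, close to their control levels. Bcl3 was at 6.32 and 5.68 CPM and Malat1 at 1230 and 1260 CPM, within their control ranges or nearly so. Pecam1 was still at 27.6 and 30.3 CPM at day 14, the same level as at day 7. Cxcl10 and Ifit1 split the day 14 libraries, with 0.269 and 9.35 CPM and with 6.59 and 25.6 CPM.

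The age difference in the day 7 change was tested as an interaction over all 24 libraries. It was called for 64 of 15794 genes (0.405%), with 43 changes more positive and 21 more negative in old than in young islets; leaving out 1 library gave 6 to 89 genes, the lowest without the first young day 7 library. The genic share was higher at old day 7 than in every old control. In young islets it was 38.3% and 41.1% at day 7 and 39.2% to 55.3% in the controls, so it moved differently with age. With the share as a covariate 59 genes were called, 29 more positive and 30 more negative in old islets. The 5 largest positive differences were those of Gbp10 (3.0, adjusted p = 0.0174), Egr1 (2.52, adjusted p = 0.0315), Trib1 (2.40, adjusted p = 0.00339), Gem (2.39, adjusted p = 0.0457) and Car8, a carbonic anhydrase-related protein (2.32, adjusted p = 0.00304). Trib1 was at 55.1 to 62.9 CPM in young controls and 32.3 and 43.2 CPM at young day 7, the opposite direction to old islets. Gbp10 was at 2.50 to 4.65 CPM in young controls and at 2.55 and 1.19 CPM at young day 7. Among the signalling genes above, the difference was also called for Elf3 (1.43, adjusted p = 0.00142), Nfkbia (1.5, adjusted p = 0.0292), Psmb8 (1.25, adjusted p = 0.0272) and Pim2 (1.14, adjusted p = 0.0146). It was not called for Socs3 (1.46, adjusted p = 0.0852), Bcl3 (1.94, adjusted p = 0.0613), Stat3 (0.97, adjusted p = 0.111), Malat1 (-1.09, adjusted p = 0.12) or Pecam1 (-0.21, adjusted p = 0.516).

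The 5 largest negative differences were those of Fam111a (-2.31, adjusted p = 0.039), Dhtkd1 (-1.66, adjusted p = 0.049), D4Wsu53e (-1.62, adjusted p = 0.00574), Plscr2 (-1.61, adjusted p = 0.0209) and S1pr3 (-1.59, adjusted p = 0.0323). Fam111a, a replication-associated protease, measured 3.09 to 4.69 CPM in young controls and 11.9 and 13.1 CPM at young day 7. Its old libraries measured 3.24 to 5.22 CPM without and 2.82 and 2.15 CPM with the operation. S1pr3, a receptor for sphingosine-1-phosphate, and Plscr2, of the phospholipid scramblase family, were higher at day 7 than in controls in every young library and lower in every old one. The replication genes Mki67 (young 1.98, old 0.15), Top2a (young 2.21, old 0.22), Mcm2 (young 1.31, old 0.33) and Mcm6 (young 1.20, old 0.31) had larger changes in young islets, past the threshold there (adjusted p = 0.0494, 0.0459, 0.0377 and 0.0201). Their age differences did not pass (adjusted p = 0.19, 0.183, 0.206 and 0.145), so the old and young responses of these genes were not shown to differ.

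**Figure D5:**
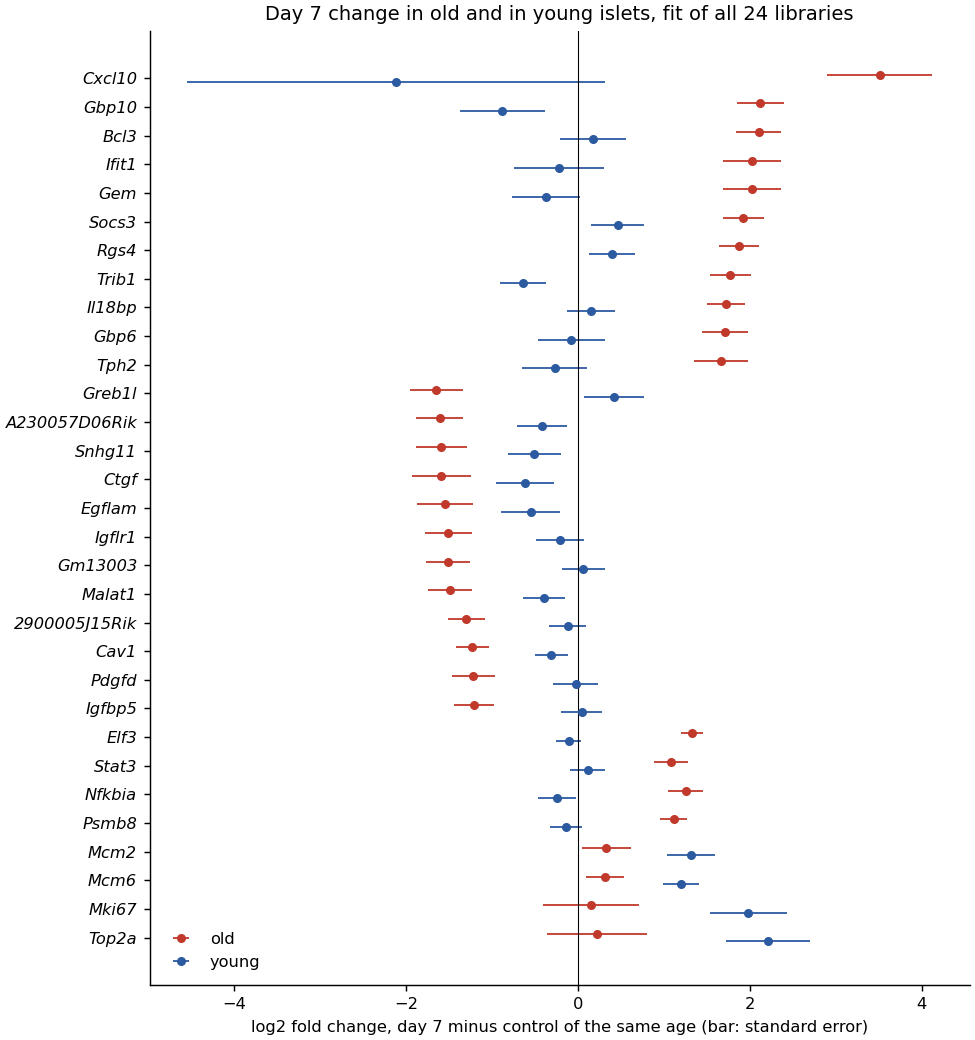
Log2 fold change of day 7 minus control of the same age (x axis; bars are SE) in old (red) and young (blue) islets, from the fit of all 24 libraries. Signalling genes at the top and in the lower middle lie to the right in old islets and near or below 0 in young ones, while Mcm2, Mcm6, Mki67 and Top2a lie further right in young islets.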

How the data were processed

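Bulk RNA-seq was made in the study from polyadenylated RNA amplified with a low-input kit and read as single reads. The deposited files hold, per RefSeq gene, a count of reads and an RPKM value; per the file headers the authors aligned to mm9 with TopHat and counted with rpkmforgenes on refGene. The submitters' processing notes name CASAVA 1.8.2, Trimmomatic 0.36 and TopHat2 2.1.1, whereas the study's methods name another aligner and counter. The deposited RPKM values (reads scaled by the authors to gene length and to each library's reads in genes) served only as an alternative. The protocol label gives the same interval for every operated library, day 2, so the day was taken from the titles.

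Counts were tested with edgeR 4.0.16 (R 4.3.3): TMM scaling, filterByExpr, a quasi-likelihood fit of 4 groups over the 12 old libraries (8 residual degrees of freedom), Benjamini-Hochberg adjustment and a threshold of 0.05. The age difference used all 24 libraries in 8 groups. CPM are TMM-scaled, SE is the log2 fold change over the root of F, and log2 CPM used a prior count of 2. Totals were 6883468 to 12379646 counts in the old libraries, so 1 count is 0.081 to 0.145 CPM before scaling, and precision is also limited by 2 day 7 libraries. Of 22197 rows, 1458 join several gene names and 441 repeat a name; reads of such genes could not be separated, and lists use rows with their own name. Named genes were the 12 largest rises and falls with an adjusted p below 0.05, a mean log2 CPM above 1, non-overlapping groups and 1 unrepeated name, a fixed set of 23, and called list members, of which 1 is not reported here; the other comparisons used the 5 largest each way, with groups taken as not overlapping for the age difference where this held in either age. The members and lists were chosen with earlier results of these data known. On simulated counts with 200 changed genes of 14991, 54.0% of 2-fold rises and 52.0% of 2-fold falls were called for this comparison, and 6 unchanged genes. The simulated libraries were independent, had a spread set by expression level alone, and held no difference of run label or genic share. Only genes above a minimum level were changed, so these rates need not hold for the real libraries. Alternatives included DESeq2 1.42.0, limma 3.58.1 on log2(RPKM + 1), other scalings and filters, run label, share of reads in genes, a replicate block and leaving out each library. Promoters are RefSeq's, GRCm38.p6; no coordinates of another build were mixed with them.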

Additional observations from a re-analysis of the deposited data

Results flagged for a closer look

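The searches below covered 63 measures in the old controls, the group with 4 libraries, and the old day 7 group with 2 libraries could not be searched. A gap rule of this kind picks about 1 group in 20 by chance.

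In control 2 the alpha cell markers summed to 27800 CPM, against at most 16500 CPM in the other controls, and Gcg alone gave 27000 CPM against 15900 CPM. The erythroid markers with a row of their own summed to 30.3 CPM in the same library, against at most 7.69 CPM elsewhere. In control 4 Ins2 lay low at 92600 CPM, and Egflam lay high at 21.8 CPM, against at most 14.4 CPM in the other controls. Slc2a2 was 639 CPM in control 3, against at most 508 CPM in the others.

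The day 7 change differed between old and young islets, by the interaction test of edgeR, for 64 genes. Among the named ones it was more positive in old islets for Gbp10 (3.0 on the log2 scale), Egr1 (2.52), Trib1 (2.40), Gem (2.39) and Car8 (2.32). It was more negative for Fam111a (-2.31), Dhtkd1 (-1.66), D4Wsu53e (-1.62), Plscr2 (-1.61) and S1pr3 (-1.59). Within run label W0054, which all young libraries carried, 78 genes were called.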

How the results depend on the processing

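The 161 genes called between old day 7 and old control islets became 1162 with DESeq2, 104 without a filter on low counts, 57 with limma on log2(RPKM + 1), 39 from the 6 libraries alone, 926 from all 24, 504 within run label W0054 (23 with the genic share as a further covariate and 620 with DESeq2, both chosen after seeing the data), 275 with run label and 96 with the genic share as covariates, and 71 where a 2-fold change was also asked; 4 to 122 were called without 1 library. Day 7 against day 2 gave 87 calls with DESeq2, 0 within W0054 and 0 to 7 without 1 library. Day 7 against day 14 gave 140 with DESeq2, 60 with the genic share, 403 within W0054 and 0 to 6 without 1 library. The age difference gave 426 with DESeq2 and 6 to 89 without 1 library. The cause was not tested. Upper quartile scaling gave 76 higher and 63 lower calls, so the share of rises fell from the 104 and 57 of the main fit. Socs3 was called under all 24 alternatives (adjusted p 2.39e-11 to 0.0346).

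Control and day 7 libraries share the replicate numbers 1 and 2, and their deviations from the group means correlated at -0.191 and 0.105, so the numbers were not taken as a pairing. With a replicate block 616 genes were called (434 within W0054), 0 for day 7 against day 2 (edgeR; 1528 at an unadjusted p below 0.05), and 482 for day 7 against day 14. Uncalled genes changed sign. Cdkn1a was -0.04 with upper quartile scaling and with 10 counts per library, -0.25 within W0054 (-0.26 with 4 libraries, -0.24 with the replicate block, -0.25 in DESeq2, -0.08 with the genic share), -0.18 with run label or block, -0.33 with the genic share and -0.02 in limma. Top2a was -0.22 within W0054 (-0.23 with 4 libraries and in DESeq2, -0.25 with the block). Ucn3 was -0.04 with run label, -0.03 with the block and -0.17 with the genic share. With W0054 and the genic share together Ins1 was 0.05, Gcg 0.38, Ppy -1.85, Mafa 0.00, Hspa5 -1.08 and Pcna -0.08. Without 1 library the range was -0.06 to 0.31 for Mafa, -0.07 to 2.77 for the log2 fold change of Reg1, -0.03 to 0.34 for Mki67, -0.08 to 0.52 for Top2a and -0.12 to 0.16 for Cdkn1a. None of these passed a threshold in the main fit. The 2 day 7 libraries limit the precision throughout.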

Other observations

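The genes in this section were picked after their values were seen. Several that fell at day 7 in old islets encode proteins of splicing: Luc7l measured 98.3 to 112 CPM in the controls and 69.1 and 71.0 CPM at day 7 (log2 fold change -0.58 ± 0.09, adjusted p = 0.013 in edgeR), and Luc7l3 (-0.74, adjusted p = 0.024), Srek1 (-0.48, adjusted p = 0.0481), Leng8 (-0.87, adjusted p = 0.0347) and the kinase Clk1 (-1.17, adjusted p = 0.0472) lay below every control too. All 5 were also called within run label W0054. With the genic share as a covariate Leng8 and Clk1 lost the call (adjusted p = 0.0649 and 0.0951).

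Further vessel and matrix genes fell: Ptprb, a phosphatase of endothelium, by 1.17 (adjusted p = 0.0198), Ltbp4, which stores TGF-beta in the matrix, by 1.16 (adjusted p = 0.0126), Nid1, a basement membrane linker, by 0.87 (adjusted p = 0.0481), and Epas1, the hypoxia-inducible factor of endothelium, by 0.56 (adjusted p = 0.031). Gad1, which makes GABA in beta cells, measured 185 to 223 CPM in the controls and 114 and 131 CPM at day 7 (-0.73, adjusted p = 0.0154). Among genes that rose, Cpt1a, the gate of mitochondrial fatty acid oxidation, measured 32.9 to 54.2 CPM and then 85.8 and 93.0 CPM (0.97, adjusted p = 0.0186), and Acaa2, a later enzyme of the same pathway, rose by 0.85 (adjusted p = 0.0186). Nrtn, the neurotrophic factor neurturin, measured 11.2 to 15.2 CPM in the controls and 39.5 and 41.2 CPM at day 7 (1.52, adjusted p = 0.0179). Gal, the neuropeptide galanin, was called (adjusted p = 0.0347) although it measured 12.8 CPM in the first day 7 library and 0.226 CPM in the second, below a control of 0.502 CPM, and it was the called gene whose groups overlapped.

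Of 16 tested genes that are immature or disallowed in beta cells 3 lay above 0, with a median of -0.59, and 0 were called in edgeR, 1 in DESeq2 and 6 at an unadjusted p below 0.05, against 7.49% and 25.0% of all genes; within run label W0054 Aldh1a3 was called lower (-2.56, adjusted p = 0.0383). The 10 fibroblast and stellate markers had a median of -0.66, with 0 called in edgeR, 2 in DESeq2 and 5 at an unadjusted p below 0.05. With the genic share as a covariate the median was -0.14 for the immature or disallowed genes and -0.26 for the fibroblast and stellate markers.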
